A study of Mus musculus with 28 samples.

Results

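Primordial germ cells (PGCs) taken from mouse embryos at E10.5 (E for embryonic day) were compared with day-1 embryoid bodies, the first aggregates on the way from cultured stem cells to PGC-like cells. All cells were of strain C57BL6, and the study as a whole asked how short telomeres affect the formation of PGCs. The E10.5 PGCs came from dissected embryonic gonads that were dissociated, passed through a 70 µm filter and sorted with antibodies to integrin β3 (CD61, the product of Itgb3) and SSEA1. The embryoid bodies, labelled LT-1dEB, came from wild-type embryonic stem cells with long telomeres (LT). Those cells spent 2 days as epiblast-like cells in bFGF and Activin A and 1 day as aggregates in medium with BMP4 at 500 ng/ml, stem cell factor (SCF) at 100 ng/ml, EGF at 50 ng/ml and 1000 IU of LIF. No sort is described for the day-1 aggregates, which may hold cells of several fates. Each group had 2 libraries of total RNA, 4 of the 28 samples of the series. The labels do not say whether replicates came from separate embryos or cultures, so the p-values and standard errors reflect only a spread between libraries. That spread was estimated jointly from 16 libraries of 8 groups of the series, the 4 compared here included. Genes with a TPM (length-scaled transcript abundance) of at least 1 in at least 2 of these 4 libraries were taken, 16085 of the 53564 symbols in the table and 11917 of them protein-coding. Of these genes, 967 passed through the PGC libraries alone and 2065 through the embryoid body libraries alone, so those had to differ between the groups. In bulk libraries such as these, fewer cells of a type and less RNA per cell cannot be told apart.

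PGCs are the founders of eggs and sperm. In the mouse they arise from the epiblast under BMP signals, through the transcription factors Prdm1, Prdm14 and Tfap2c. They then migrate to the genital ridges and lose most of their DNA methylation, after which a later set of germ cell genes, many with methylated promoters in other cells, comes on. In culture, epiblast-like cells exposed to BMP4 pass through the same opening steps, so day-1 aggregates stand near the start of that path and E10.5 PGCs at the arrival in the gonad.

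The deposited TPM values were rescaled so that nuclear protein-coding genes total 1000000 in each library, because these genes held 61.1% and 61.3% of TPM in the PGC libraries and 38.7% and 38.9% in the embryoid bodies. RNA assigned to an rRNA-like locus on chromosome 17 took 0.909% and 0.998% of TPM in the PGCs against 27.4% ± 0.113 (SD, n = 2) in the embryoid bodies. Pearson's r between log2 values across genes, which are not independent replicates, was 0.981 for the PGC replicates, 0.966 for the embryoid bodies and 0.769 to 0.772 between the groups. A gene is called higher or lower in PGCs here when limma's Benjamini-Hochberg adjusted p was under 0.05 and the difference was at least 1 on the log2(scaled TPM + 1) scale. By this rule 1753 genes (10.9% of those tested) were higher in PGCs and 5840 (36.3%) were lower. The split depends on the scaling. Deposited TPM gave 2983 higher (18.5%) and 3106 lower (19.3%). Quantile normalization gave 3034 (18.9%) and 2916 (18.1%), and scaling by the median of ratios 3015 (18.7%) and 3883 (24.1%). The median difference over all genes was -0.61 with protein-coding totals, -0.03 with deposited TPM, -0.03 with quantile normalization and -0.11 with the median of ratios. The difference also moved with base composition, from a median of -0.24 in the quintile of protein-coding genes lowest in GC content to -1.25 in the highest. It moved with transcript length too, from -0.16 in the shortest quintile to -0.82 in the longest. A correction that centred each library within 20 classes of GC content gave 3084 higher (19.3%) and 3239 lower (20.2%) genes. That step also recentred each library as a whole, and the median difference over all genes became -0.04. The part of GC content in the new split was not tested. Under these 5 settings alike, 1704 genes (10.6% of the 16018 with a GC value) were called higher and 2371 (14.8%) lower, and no gene was called in opposite directions. In 87.8% of the genes tested both PGC libraries lay above or both lay below the 2 embryoid body libraries, so groups that do not overlap are the common case here. Counts below are for protein-coding totals, followed by the number called under all 5 settings. All list counts are to be read beside the all-gene shares of 10.9% higher and 36.3% lower, or 10.6% and 14.8% under all 5 settings.

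**Figure D1:**
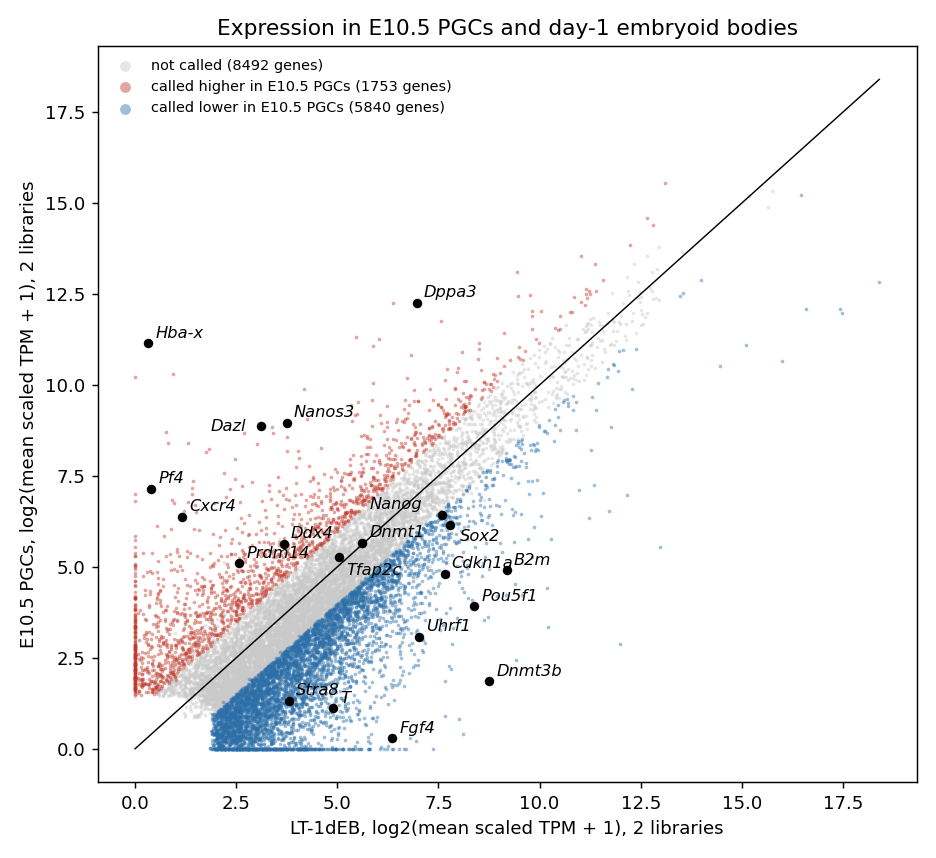
Mean expression in E10.5 PGCs (vertical axis) against LT-1dEB (horizontal axis), both as log2(mean scaled TPM + 1) over 2 libraries, 1 point per gene tested. Red points are the 1753 genes called higher in PGCs, blue points the 5840 called lower, grey points the rest, and the line marks equal values. Dppa3, Nanos3, Cxcr4 and Dazl lie far above the line and Pou5f1, Dnmt3b and Fgf4 far below it.

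Most defining markers of PGCs were higher in the libraries labelled E10.5 PGC, with Pou5f1 as the main exception. Of 19 early PGC genes 18 were tested, 11 were higher in E10.5 PGCs and 4 lower, with a median difference of 1.87 beside -0.61 for all genes. Under all 5 settings 11 were higher and 3 lower. Dppa3 (Stella), a maternal-effect factor that protects methylation in the zygote and a classic PGC marker, stood at 4922 and 4909 scaled TPM in PGCs and at 132 and 116 in embryoid bodies. The difference was 5.30 ± 0.07 (SE) on the log2 scale (limma, adjusted p = 2.3e-12). Nanos3, an RNA-binding protein needed for PGC survival, stood at 490.1 and 508 against 9.27 and 15.5. Cxcr4, the receptor that guides PGCs toward its ligand Cxcl12 in the genital ridge, stood at 84.6 and 79.3 against 1.67 and 0.768. For Dppa3 and Nanos3 both PGC libraries lay far above both embryoid body libraries, and the log2 difference was 5.26 ± 0.18 for Nanos3. Cxcr4 passed the filter through the PGC libraries alone, so its direction was fixed.

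Kit, the receptor for stem cell factor on migrating PGCs, was at 31.6 and 32.5 in PGCs against 7.57 and 5.87, a difference of 2.10 ± 0.11 (limma, adjusted p = 3.2e-08). Rhox9, a homeobox gene of an X-linked reproductive cluster, was at 534 and 543 against 18.8 and 17.5. Tcl1, a co-activator of AKT, was at 305 and 274 against 12.8 and 12.3. All 3 were higher in both PGC libraries than in either embryoid body library. The other members called higher were Rhox5, Rhox6, Dnd1, Ifitm1 and Dppa4, with differences up to 4.18. Ifitm3 (Fragilis) was abundant in both groups, at 2862 and 2841 in PGCs against 3058 and 3023, and was not called.

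Pou5f1 (Oct4), a pluripotency factor that PGCs are known to keep, went the other way. It stood at 14.2 and 14.0 scaled TPM in PGCs against 318 and 350 in embryoid bodies, a difference of -4.47 ± 0.19 (limma, adjusted p = 6.7e-09) that was called under all 5 settings. The gene Gm19553, which overlaps Pou5f1 on the other strand and was looked at after these values were seen, stood at 54.7 and 52.4 against 1180 and 1319. No source names a strand setting for the authors' counting, so reads of this pair cannot be told apart. Lin28a, an RNA-binding protein that blocks let-7 maturation, was lower at 13.7 and 14.5 against 84.7 and 84.1. Elovl4, a fatty acid elongase, was lower too, and Alpl, the tissue non-specific alkaline phosphatase long used to stain PGCs, was called lower with protein-coding totals alone.

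Among 9 genes of PGC specification, all tested, 3 were higher in PGCs and 5 lower, and under all 5 settings 3 were higher and 1 lower. Prdm14, which represses DNA methylation and differentiation genes, was at 33.0 and 33.4 in PGCs against 4.71 and 5.24, a difference of 2.52 ± 0.15. Prdm1 (Blimp1), which represses the somatic programme, was at 18.1 and 18.9 against 3.79 and 3.07, a difference of 2.14 ± 0.15 (limma, adjusted p = 3.5e-07). Sall4, a zinc finger factor of pluripotent and germ cells, was at 566 and 552 against 206 and 198. Tfap2c, the remaining member of the specifying trio, was at 35.7 and 39.4 against 33.8 and 30.1, and its difference of 0.23 ± 0.14 did not pass the test (limma, adjusted p = 0.18). Hes1, a Notch target, was lower under all 5 settings. Nanog, Klf5 and Otx2 had differences of -1.20 to -1.15 and lost the call under at least 3 of the other 4 settings.

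The sort antigens themselves cannot test the comparison. Itgb3 was at 16.99 and 18.27 scaled TPM in PGCs against 7.17 and 5.41, which is given as a description since the PGCs were chosen with its product. Of the fucosyltransferase genes that can build SSEA1, Fut4 was under the filter at 0.535 and 0.247 against 0.989 and 1.36. Fut9, looked at after the lists were made, was at 1.29 and 1.39 against 7.72 and 5.66. Of 16 genes of PGC adhesion and guidance, 5 were higher (Cxcr4, Pecam1, Kit, Kitl and the sort marker Itgb3, which gives no support) and 5 lower, 3 of them under all 5 settings. Over all genes 10.9% were higher and 36.3% lower, 14.8% lower under all 5 settings. Cxcr4 and Kitl passed the filter through the PGC libraries alone. The largest fall was that of Itga6, an integrin subunit, at 3.405 and 3.50 against 47.7 and 48.6. Cdh1 (E-cadherin) fell from 72.4 and 74.8 in embryoid bodies to 20.4 and 22.2 in PGCs, and Igf1r, the receptor of insulin-like growth factor 1, fell by 2.46 on the log2 scale.

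Genes of later germ cells were nearly all higher in PGCs or not called. Of 32 such genes 22 passed the filter on low values, 4 of them through the PGC libraries alone. Of the 22, 16 were higher in PGCs, all under all 5 settings, and 1 (Pld6) was lower with protein-coding totals alone. Dazl, an RNA-binding protein that licenses germ cells for sex differentiation, stood at 477 and 466 scaled TPM in PGCs against 8.56 and 6.77, a difference of 5.78 ± 0.11 (limma, adjusted p = 5.0e-11). Asz1, a mitochondrial scaffold of the piRNA pathway, stood at 41.4 and 39.9 in PGCs and was listed at 0 in both embryoid body libraries. Slc25a31, the germ cell ADP/ATP carrier, stood at 43.1 and 44.98 against 1.66 and 0.435. For Dazl the groups were far apart compared with the gap between replicates. Asz1 and Slc25a31, and Mov10l1 below, passed the filter through the PGC libraries alone, so their direction was fixed.

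Other genes of the piRNA and chromatoid body machinery were higher too. Stk31 was at 75.6 and 70.8 in PGCs against 6.53 and 4.43, and Mov10l1, the helicase that starts piRNA processing, at 20.9 and 24.0 against 1.69 and 2.10. Gtsf1, a partner of PIWI proteins, was at 27.6 and 28.8 against 5.80 and 1.67, with a wide gap between the embryoid body replicates. Ddx4 (Vasa), the RNA helicase that marks germ cells once they settle in the gonad, was at 51.2 and 46.6 against 13.9 and 9.68, a difference of 1.98 ± 0.23 (limma, adjusted p = 1.4e-05). Both PGC libraries lay above both embryoid body libraries. The members that were tested and not called were Rnf17, Mybl1, Tdrd7, Dmrt1 and Taf7l, and Tdrd1, Tdrd6, Tdrd9, Piwil1, Piwil4 and Nanos2 stayed under the filter.

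**Figure D2:**
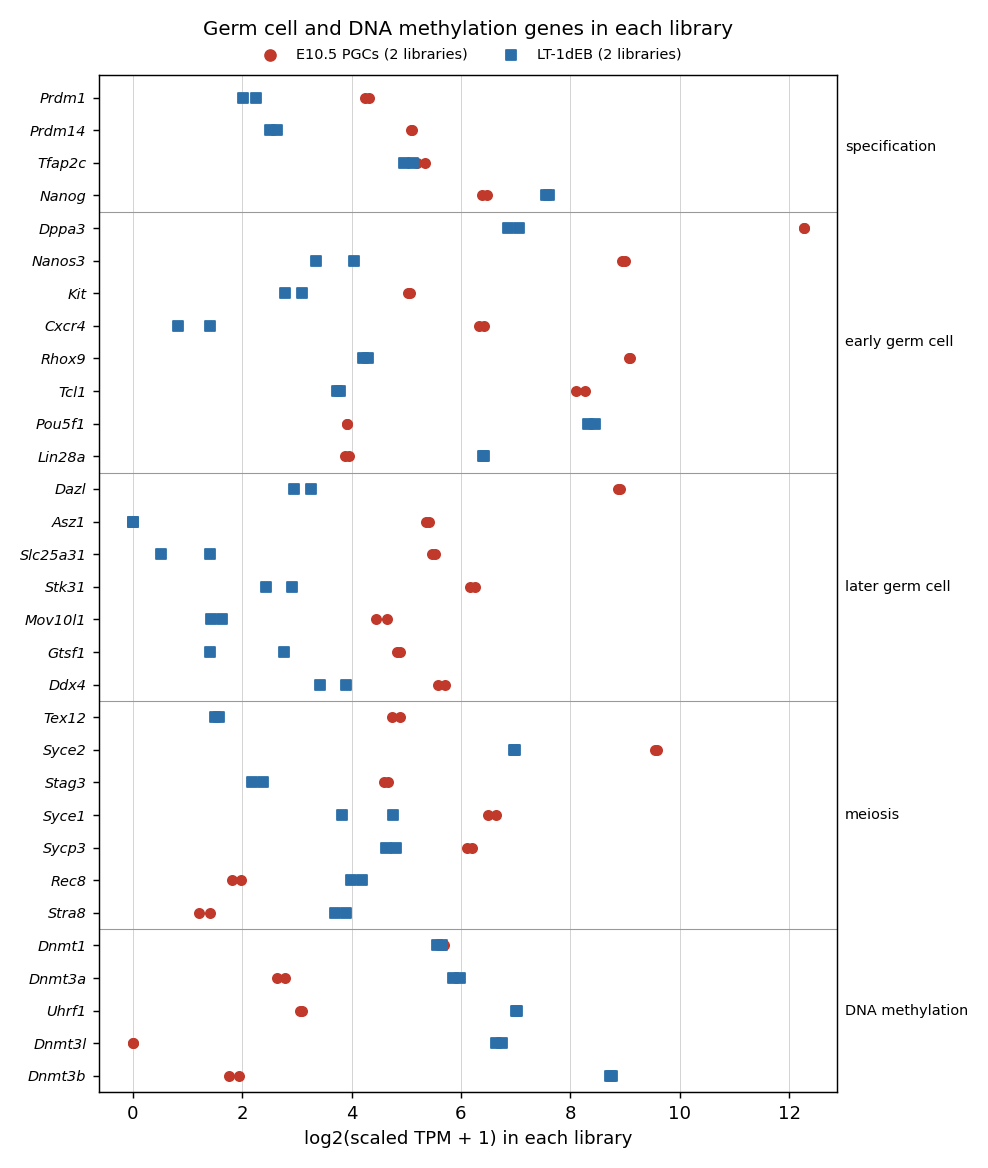
Level of 31 genes of germ cell formation and DNA methylation in each of the 4 libraries, as log2(scaled TPM + 1) on the horizontal axis, with circles for E10.5 PGCs and squares for LT-1dEB. Most early and later germ cell genes lie to the right in both PGC libraries, while Pou5f1, Lin28a, Rec8, Stra8 and the de novo methylation genes lie to the left and Tfap2c and Dnmt1 overlap or nearly overlap.

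Meiosis genes moved in both directions. Of 35 genes 24 were tested, 12 were higher in PGCs, all under all 5 settings, and 6 were lower, 3 of them under all 5. The shares over all genes were 10.9% higher and 36.3% lower, or 10.6% and 14.8% under all 5 settings. The meiosis list thus stood out by its higher members and not by its lower ones. Of the 24, 4 passed the filter through the PGC libraries alone, Tex12 among them, and Meioc through the embryoid body libraries alone. Tex12 and Syce2, which build the central element of the synaptonemal complex that zips homologous chromosomes, were higher. Tex12 was at 28.7 and 25.8 against 1.98 and 1.82, and Syce2 at 767 and 742 against 126 and 125 (difference 2.58 ± 0.05, limma, adjusted p = 5.6e-11). Syce1, also of the central element, was at 98.4 and 89.3 against 13.1 and 26. Stag3, the meiotic cohesin subunit, was at 24.36 and 23.14 against 3.513 and 4.199, and Sycp3, of the axial element, at 68.1 and 72.8 against 27.1 and 23.8.

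Among the lower genes were some that act at meiotic entry. Stra8, the retinoic acid target that starts meiotic entry, was lower in PGCs, at 1.329 and 1.677 against 12.01 and 13.86, a difference of -2.48 ± 0.19 (limma, adjusted p = 7.1e-07). Rec8, the meiotic kleisin of cohesin, was at 2.97 and 2.52 against 14.9 and 17.2. Meioc, which acts in meiotic prophase, was at 0.472 and 0.437 against 4.25 and 5.82. For these 3 genes both PGC libraries lay below both embryoid body libraries under all 5 settings, whereas Dmc1, Sycp1 and Mlh3 kept the call in 2 settings at most. The recombinase gene Dmc1 was at 4.83 and 6.21 against 12.2 and 15.8.

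Promoters of these genes are shown because so many of the later germ cell and meiosis genes were higher together. RefSeq promoters (GRCm38.p6) were searched on both strands for CACGTG, the palindromic E-box bound by MAX heterodimers, and for TCCCGC or its complement GCGGGA, an E2F-type motif. CACGTG occurred within 250 bases upstream of the start in 43.3% of 30 promoters of the 25 later germ cell and meiosis genes called higher that matched RefSeq by symbol. It occurred in 8.31% of 11754 promoters of 9256 tested protein-coding genes, and in 22.2% of 9 promoters of the 7 later germ cell and meiosis genes called lower. Among all tested protein-coding genes the motif did not go with the call. It occurred in 8.7% of promoters of genes called higher, 8.2% of those called lower and 8.3% of those not called. The E2F-type motif occurred in 40.0% of the same 30 promoters and in 30.0% of all. The motifs and lists were chosen with results of these data known, a match shows only that the letters are present, and no binding was measured. The 200 bases upstream of the start follow for Slc25a31 (chr3:40708671-40708870, plus strand), Tex12 (chr9:50561269-50561468, minus strand), Stk31 (chr6:49395339-49395538, plus strand), Sycp3 (chr10:88459387-88459586, plus strand) and Ddx4 (chr13:112652311-112652510, minus strand), all higher in PGCs. Stra8 (chr6:34920748-34920947, plus strand), which was lower, has neither motif in this window. The promoters shown are not typical of their groups. All those of higher genes hold CACGTG, whereas Dazl and Asz1, also higher, have neither motif within 250 bases. Among lower genes, Sycp1 and a promoter of Pld6 hold CACGTG, and Rec8, Dmc1 and Meioc hold the E2F-type motif. Each printed sequence is written 5′ to 3′ on the gene's strand, with capitals marking either motif, which can share 1 base where they touch.
Slc25a31: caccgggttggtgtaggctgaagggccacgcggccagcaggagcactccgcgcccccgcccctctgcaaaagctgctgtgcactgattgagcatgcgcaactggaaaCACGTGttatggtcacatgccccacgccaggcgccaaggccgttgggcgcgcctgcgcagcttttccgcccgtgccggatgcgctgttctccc
Tex12: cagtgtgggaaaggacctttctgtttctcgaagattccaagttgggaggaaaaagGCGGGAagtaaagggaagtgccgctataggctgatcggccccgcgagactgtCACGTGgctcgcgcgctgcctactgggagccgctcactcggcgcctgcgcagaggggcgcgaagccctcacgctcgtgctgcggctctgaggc
Stk31: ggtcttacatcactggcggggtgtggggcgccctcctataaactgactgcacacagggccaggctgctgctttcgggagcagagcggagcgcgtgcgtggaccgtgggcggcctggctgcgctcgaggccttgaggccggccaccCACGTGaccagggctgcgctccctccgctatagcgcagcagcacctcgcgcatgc
Sycp3: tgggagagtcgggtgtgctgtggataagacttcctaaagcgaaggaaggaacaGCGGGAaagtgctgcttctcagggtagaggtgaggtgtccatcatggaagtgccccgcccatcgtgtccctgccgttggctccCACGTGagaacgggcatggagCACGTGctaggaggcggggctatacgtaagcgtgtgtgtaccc
Ddx4: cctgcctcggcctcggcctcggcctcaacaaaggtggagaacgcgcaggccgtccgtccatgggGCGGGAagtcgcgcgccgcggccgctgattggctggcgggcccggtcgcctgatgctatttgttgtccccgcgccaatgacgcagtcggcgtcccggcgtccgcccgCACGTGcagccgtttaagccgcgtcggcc
Stra8: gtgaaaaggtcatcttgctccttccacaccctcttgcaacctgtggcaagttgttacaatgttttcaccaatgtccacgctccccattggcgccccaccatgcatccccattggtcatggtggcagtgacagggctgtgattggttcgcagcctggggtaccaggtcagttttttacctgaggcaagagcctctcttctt

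Genes of DNA methylation and its removal were lower in PGCs or not called. Of 16 genes 14 were tested, 9 were lower in PGCs and 0 higher, with a median difference of -1.99, and 7 were lower under all 5 settings. Of the 14, 4 passed the filter through the embryoid body libraries alone, Dnmt3l and Zfp57 among them. Dnmt3b, a de novo methyltransferase, stood at 2.39 and 2.83 scaled TPM in PGCs against 424 and 435 in embryoid bodies, a difference of -6.90 ± 0.12 (limma, adjusted p = 1.5e-11). Dnmt3l, its catalytically inactive partner, was listed at 0 in both PGC libraries and stood at 107 and 98.5 in embryoid bodies. Dnmt3a, the other de novo enzyme, was at 5.26 and 5.89 against 62.3 and 56.7. Uhrf1, which brings the maintenance enzyme to replicating DNA, was at 7.37 and 7.49 against 130 and 127 (difference -3.94 ± 0.15). Dnmt1, that maintenance enzyme, was at 48.6 and 50.7 against 46.4 and 49.6, a difference of 0.05 ± 0.07 that did not pass the test (limma, adjusted p = 0.55).

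Other members were lower as well. Zfp57, which protects imprints from demethylation, was at 1.497 and 1.597 against 83.13 and 83.63. Tet1, a dioxygenase that oxidizes 5-methylcytosine, was at 14.6 and 14.2 against 67.8 and 65.6, and Tdg, the glycosylase that removes oxidized bases, fell by 2.78 on the log2 scale. Tet2, Mbd2, Mbd4 and Trim28 were tested and not called.

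The non-canonical Polycomb complex PRC1.6 and its partners, which silence germ cell genes in pluripotent cells, were measured with 16 genes. Of these 7 were lower in PGCs, 4 of them under all 5 settings, and 1 was higher. The share of all genes called lower was 36.3%, or 14.8% under all 5 settings. Mga, the large MAX partner that brings the complex to E-boxes, stood at 10.6 and 11.1 against 40.0 and 36.7, a difference of -1.73 ± 0.09 (limma, adjusted p = 2.7e-08). L3mbtl2 was at 11.9 and 11.8 against 49.2 and 48.9, Rybp at 1.20 and 1.21 against 8.71 and 8.20, and Ehmt1, a histone H3 lysine 9 methyltransferase, at 8.48 and 9.44 against 35.9 and 36.2. Rybp passed the filter through the embryoid body libraries alone, so its direction was fixed. Max itself was at 10.4 and 10.2 against 33.3 and 29.2 and was called lower in 2 of the 5 settings. The member that rose was Cbx3 (HP1γ), at 68.3 and 65.4 against 23.2 and 21.0, of which 11 near-identical pseudogene copies exist that counting could share reads with. Pcgf6, E2f6, Setdb1 and Ehmt2 were not called.

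Pluripotency genes did not move as a block. Of 14 core genes 3 were higher in PGCs and 9 lower, 5 of these under all 5 settings. Zfp42 (Rex1), a naive marker, was at 182 and 186 in PGCs against 52.7 and 41.3, and Dppa5a and Sall4 were the other 2 that were higher. Tdgf1 (Cripto), the Nodal co-receptor, was at 19.12 and 16.65 against 773 and 746.6, and Foxd3 at 0.0938 and 0.144 against 20.4 and 23.3. Foxd3 passed the filter through the embryoid body libraries alone, so its direction was fixed. Sox2 was lower by 1.64 ± 0.09, at 70.7 and 70.4 against 222 and 220, and kept the call in 4 of the 5 settings. Nanog was at 82.5 and 88.1 against 193 and 188 and kept it in 2. Esrrb and Utf1 were not called.

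Of 16 naive pluripotency genes 4 were higher and 8 lower, 6 of these under all 5 settings. The higher ones were Tcl1, Prdm14, Zfp42 and Dppa5a. Fgf4, Socs3 and Tbx3 passed the filter through the embryoid body libraries alone. Fgf4 had the largest difference, at 0.341 and 0.105 in PGCs against 87.3 and 75.5. Socs3, a feedback inhibitor of LIF signalling, was at 0.829 and 0.581 against 60.1 and 63.1, Klf4 at 5.58 and 5.18 against 60.5 and 53.8, and Tbx3 at 0.362 and 0.152 against 8.13 and 8.73. Both PGC libraries lay below both embryoid body libraries for each of these genes.

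Formative and primed pluripotency, the state of the epiblast and of epiblast-like cells, was low in PGCs. Of 19 genes 14 were lower, 12 of them under all 5 settings, with a median difference of -2.86. Pou3f1 (Oct6) stood at 0.623 and 1.13 scaled TPM against 201 and 200.4. It is among 5 of the 19 that passed the filter through the embryoid body libraries alone, as are Zic5 and Sox3, so their direction was fixed. Zic5 was at 0.490 and 0.687 against 48.5 and 52.2, Sox3 at 0.739 and 0.813 against 18.8 and 22.4, and Tcf15 at 8.01 and 5.14 against 136 and 151. Fgf5, the usual marker of epiblast-like cells, was at 2.09 and 2.96 against 13.5 and 13.5. Otx2, which holds cells back from the germ line, was low in both groups, at 1.45 and 3.34 against 6.08 and 6.91, and was called with protein-coding totals alone. Lef1, a WNT effector, was the 1 member that was higher.

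**Figure D3:**
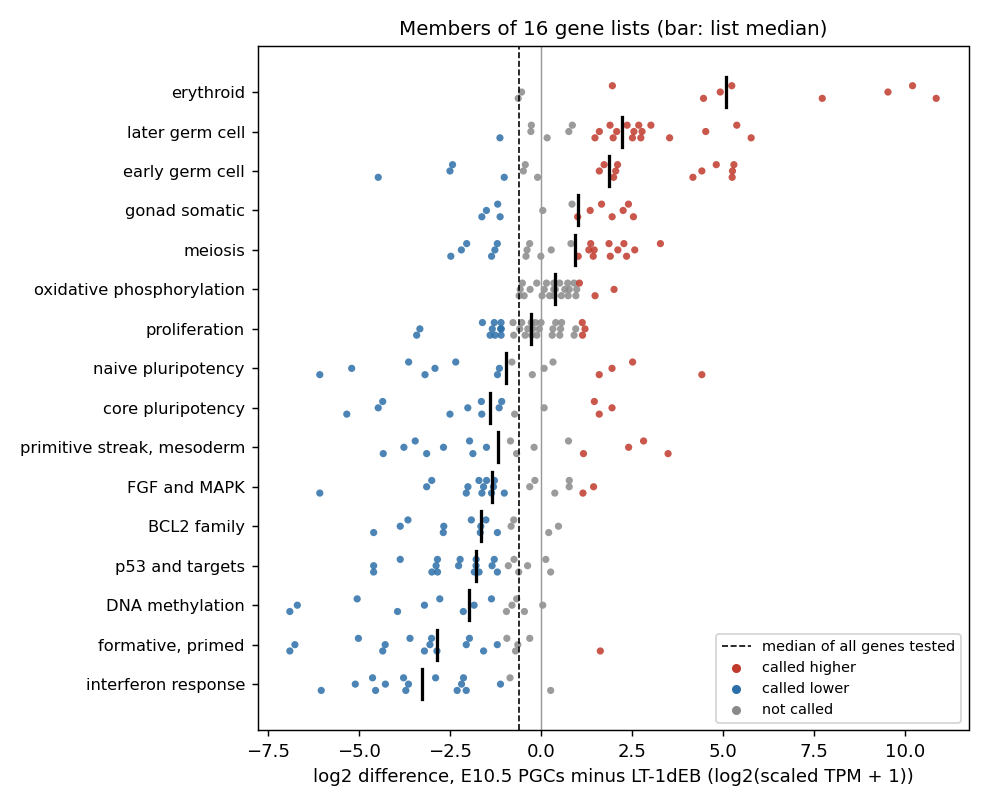
Log2 difference (E10.5 PGCs minus LT-1dEB, on the log2(scaled TPM + 1) scale) of each tested member of 16 gene lists. Red points were called higher, blue points lower and grey points not called, short bars mark list medians, and the dashed line marks the median of all genes tested, -0.61. The medians of the erythroid (5.09), later germ cell (2.22) and early germ cell (1.87) lists lie to the right of the dashed line, and those of the interferon (-3.27), formative (-2.86) and DNA methylation (-1.99) lists to the left.

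Primitive streak and mesoderm genes, which epiblast cells switch on under BMP and WNT, moved in both directions. Of 28 genes 16 were tested, 8 were lower in PGCs and 4 higher. Under all 5 settings 5 were lower and 3 higher, and with quantile normalization 5 were lower. Of the 16, 7 passed the filter through the embryoid body libraries alone, T, Wnt8a, Snai1 and Fgf8 among them, and 4 through the PGC libraries alone, so the direction of these was fixed by the filter. T (Brachyury) was at 1.32 and 1.02 against 31.8 and 25.4. Wnt8a was listed at 0 in both PGC libraries and stood at 18.5 and 19.9 in embryoid bodies, and Snai1, a driver of epithelial-mesenchymal transition, was at 0.807 and 1.24 against 18.9 and 23.4. Fgf8 was at 0.969 and 1.49 against 17.9 and 19.2. The higher members were homeobox and T-box genes also used in later trunk and limb tissue. Tbx4 was at 13.2 and 17.1 against 0.592 and 0.272, Lhx1 at 11.8 and 13.8 against 0.989 and 0.909, Msx2 at 16.8 and 20.2 against 2.76 and 2.54, and Evx1 was low in both groups.

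Counts for the signalling lists stand beside an all-gene share of 36.3% lower and 10.9% higher, or 14.8% and 10.6% under all 5 settings. In the Nodal and TGFβ list 9 of 18 were lower, 6 under all 5 settings, and Skil was the 1 that was higher. Inhba, a subunit of activin, was listed at 0 in both PGC libraries against 32.8 and 32.7, Lefty1, a Nodal antagonist, was at 33.5 and 34.6 against 337 and 368, and Nodal itself at 12.4 and 12.3 against 84.6 and 84.4. In the FGF and MAPK list 13 of 20 were lower, 5 under all 5 settings, and 2 (Spry2 and Fgfr2) were higher. In the BMP list 7 of 19 were lower and 3 higher, 4 and 3 under all 5 settings. The BMP targets Id1 (105.6 and 90.92 against 396.3 and 392.3) and Id2 (55.1 and 51.2 against 180 and 168) were lower, Id3 (359 and 353 against 350 and 374) was not called, and Bmp7 was higher at 9.326 and 9.611 against 1.504 and 1.497. Bmp7 passed the filter through the PGC libraries alone and Inhba through the embryoid body libraries alone, so their direction was fixed.

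In the WNT list 7 of 19 were lower and 3 higher, 4 and 3 under all 5 settings. Lgr4, an R-spondin receptor, was at 400 and 394 in PGCs against 50.7 and 48.5, and Ccnd1 at 8.01 and 7.99 against 91.8 and 86.9. In the retinoic acid list 8 of 15 were lower and 3 higher, 5 and 3 under all 5 settings. The receptors Rara (5.14 and 3.69 against 65.2 and 69.2) and Rarg (2.30 and 2.76 against 50.1 and 51.4) were lower, and the synthesis enzymes Aldh1a2 (7.99 and 8.75 against 0.445 and 1.02) and Aldh1a1 were higher. Both enzymes passed the filter through the PGC libraries alone, so their direction was fixed. Immediate early genes gave 10 lower and 3 higher of 16, 3 and 3 under all 5 settings. Junb was at 4.45 and 8.76 against 59.3 and 56.3, while Fos was higher at 39.3 and 43.8 against 7.49 and 7.68.

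Lists of other lineages were sparse, and many of their members passed the filter through 1 group alone, namely 6 of 13 endoderm, 6 of 8 neural and 8 of 12 Hox genes. Of 22 endoderm genes 13 were tested, with 4 higher and 4 lower. Apoa2, an apolipoprotein, was listed at 0 and at 1.25 in PGCs against 144 and 174, and Apoe was at 139 and 123 against 1048 and 1121. Of 20 neural and ectoderm genes 8 were tested, with 2 higher and 6 lower, among them Olig2 at 0 and 0.276 against 45.05 and 42.0. Of 39 Hox genes 12 were tested, with 3 higher (Hoxd8, Hoxa5 and Hoxb7) and 3 lower, none of the lower ones under all 5 settings, and all at single-digit values. Beside these counts, 36.3% of all genes were lower and 10.9% higher, so the lower endoderm and Hox genes were no more frequent than among all genes.

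p53 and its targets were lower in E10.5 PGCs than in embryoid bodies. Of 24 genes 22 were tested, 16 were lower, 11 of them under all 5 settings, and 0 were higher, with a median difference of -1.78. Of the 22, 3 passed the filter through the embryoid body libraries alone. Trp53 was at 116 and 109 against 364 and 371. Cdkn1a (p21), the cell cycle inhibitor that p53 induces, was at 25.9 and 28.2 against 201 and 199, a difference of -2.84 ± 0.06 (limma, adjusted p = 5.6e-11). Phlda3 was at 4.05 and 3.88 against 119 and 119, and Ccng1 at 14.8 and 16.1 against 115 and 119. Mdm2, the ligase that removes p53 and itself a target, had a difference of -0.61, equal to that of the median gene, and was not called. Trp53 lies on chromosome 11, whose genes were low as a group in this comparison, as described with the chromosome values.

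The pro-death members of the BCL2 family that p53 induces were low in PGCs as well. Bbc3 (Puma) was at 0.513 and 0.474 against 34.1 and 36.2, Pmaip1 (Noxa) at 3.21 and 4.57 against 69.8 and 69.5, and Bak1, a pore former, at 1.36 and 1.40 against 34.5 and 24.2. Of 14 family members tested 10 were lower, 5 of them under all 5 settings, and 0 higher, and 3 of the 14 passed the filter through the embryoid body libraries alone, Bbc3 and Bak1 among them. The survival genes Bcl2l1 (6.04 and 6.67 against 25.6 and 27.8) and Mcl1 were lower as well, each in 4 of the 5 settings, while Bid and Bad were not called.

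Most proliferation genes were not called. Of 35 genes 3 were higher (Ccnb1, Mcm4 and Ccnb2) and 11 lower, but the median of ratios turned this into 8 higher and 3 lower, and 2 in each direction were called under all 5 settings. Mki67, a marker of cycling cells, was at 30.8 and 33.5 against 33.0 and 31.1 (limma, adjusted p = 0.98). The lower genes under all 5 settings were Ccnd1 and Myc, the latter at 3.13 and 3.58 against 41.9 and 49.2. Of 5 CDK inhibitors tested, Cdkn1a and Cdkn2b were lower and none higher. Cdkn2b passed the filter through the embryoid body libraries alone, so its direction was fixed. Among 20 telomere genes 8 were lower, 3 (Tert, Atrx and Naf1) under all 5 settings, and none was called higher. Over all genes tested 36.3% were lower, or 14.8% under all 5 settings. Tert, the catalytic subunit of telomerase, was at 0.571 and 0.762 against 8.17 and 8.56, and passed the filter through the embryoid body libraries alone, so its direction was fixed. Terc, its RNA, stayed under the filter, at 1.54 and 1.59 against 2.38 and 4.38.

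Of 26 nuclear genes of oxidative phosphorylation 3 were higher in PGCs (Ndufb8, Sdhb and Cox7a2) and 0 lower, with a median difference of 0.38 beside -0.61 for all genes. With the median of ratios 12 were higher and 0 lower. The median transcript length of the list was 1735 bases. With protein-coding totals the median difference was -0.16 in the shortest quintile of protein-coding genes and -0.06 in the most expressed quintile. The part of length and level in the difference of this list was not tested. Ndufb8, of complex I, was at 968.3 and 976.7 against 232.6 and 249.3. Of 25 glycolysis and hypoxia genes 11 were lower, 6 under all 5 settings, and 2 (Bnip3 and Ankrd37) higher. Over all genes 36.3% were lower, or 14.8% under all 5 settings, and 10.9% higher. Slc16a3, a lactate exporter, was at 1.11 and 1.07 against 43.4 and 47.9, Hk2 at 12.49 and 12.66 against 68.76 and 68.48, and Ldha at 88.8 and 82.6 against 362 and 383. Slc16a3 passed the filter through the embryoid body libraries alone, so its direction was fixed. Gapdh was called lower too, but 175 near-identical pseudogene copies held 1154 and 1135 scaled TPM in PGCs and 1968 and 2058 in embryoid bodies, so its value is uncertain. In cholesterol synthesis 3 of 22 genes were higher and 3 lower, and the sterol sensor Insig1 (248.9 and 244.8 against 40.7 and 36.97) was among the higher ones.

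Interferon response genes were mostly lower in PGCs. Of 21 genes 16 were tested, 10 of them through the embryoid body libraries alone, 14 were lower, 13 under all 5 settings, and 0 higher. Isg15 and Ifit3 were listed at 0 in both PGC libraries, with Isg15 at 31.3 and 35.5 in embryoid bodies. Bst2 (tetherin) was at 41.8 and 34.2 against 891 and 918, B2m, the light chain of MHC class I, at 27.1 and 31.2 against 596 and 568, and Psmb8, an immunoproteasome subunit, at 0.0796 and 0 against 68.3 and 66.2. The difference was -4.54 ± 0.09 for Bst2 (limma, adjusted p = 4.5e-11). The chemokine Ccl5 was listed at 0 in both PGC libraries and at 76.1 and 72.3 in embryoid bodies.

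Of 19 histone genes of the replication-dependent clusters 13 were lower, 5 under all 5 settings, and Hist1h2ac was higher. Hist1h2ac matches 2 pseudogene copies that held 2125 and 1060 scaled TPM in PGCs and 1077 and 816 in embryoid bodies. Its own level was 47.1 and 54.1 against 9.74 and 7.65, so its value is uncertain. Linker histones were among the lower genes, with Hist1h1e at 7.34 and 9.75 against 58.7 and 54.5 and Hist1h1c at 6.01 and 7.32 against 38.4 and 49.6. Of 11 histone variant genes H2afy (macroH2A1) and H2afv were higher and H2afy2 and H1fx lower, all under all 5 settings. H2afy was at 189 and 199 against 46.4 and 44.0, and H1fx at 1.25 and 4.14 against 86.9 and 77.2.

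The globins Hba-x, Hbb-y and Hba-a1 had the 3 largest rises of all genes tested. Of 14 erythroid genes 10 were tested, 8 of them through the PGC libraries alone, and 8 were higher. The embryonic globins Hba-x (ζ) and Hbb-y (ε) stood at 2255 and 2291 and at 1173 and 1200 scaled TPM in PGCs. In embryoid bodies Hba-x was at 0 and 0.493 and Hbb-y was listed at 0 in both libraries. Hba-a1 was at 1251 and 1256 and Hbb-bh1 at 326 and 344, while Alas2, the erythroid enzyme that starts haem synthesis, and Klf1, an erythroid transcription factor, were not called and stood below 2 scaled TPM in PGCs. The summed level of the list was 5115 and 5233 in PGCs against 10.6 and 12.4.

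The platelet genes Pf4 (144.5 and 138 against 0 and 0.642) and Ppbp (36.6 and 26.1, listed at 0 in both embryoid body libraries) were higher, as was Gp9, while Itga2b, a defining platelet integrin, stood at 1.12 and 0.924 and stayed under the filter. Integrin β3, one of the sort antigens, is also carried by platelets and megakaryocytes. Of the 4 platelet genes tested 3 passed the filter through the PGC libraries alone. Of 7 macrophage and leukocyte genes tested 5 were higher, or 3 to 4 with 1 library left out, and 4 of the 7 passed through the PGC libraries alone, so their direction was fixed. Among them were Tyrobp at 16.7 and 10.1 and C1qb at 5.01 and 6.48, both listed at 0 in both embryoid body libraries. Cd68 was lower, and the pan-leukocyte gene Ptprc was at 0.0595 and 0. Globin and platelet RNA stood high in both PGC libraries, and its part in the levels of genes that blood cells share with PGCs, such as Kit, Cxcr4, Pecam1 and Itgb3, was not tested.

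**Figure D4:**
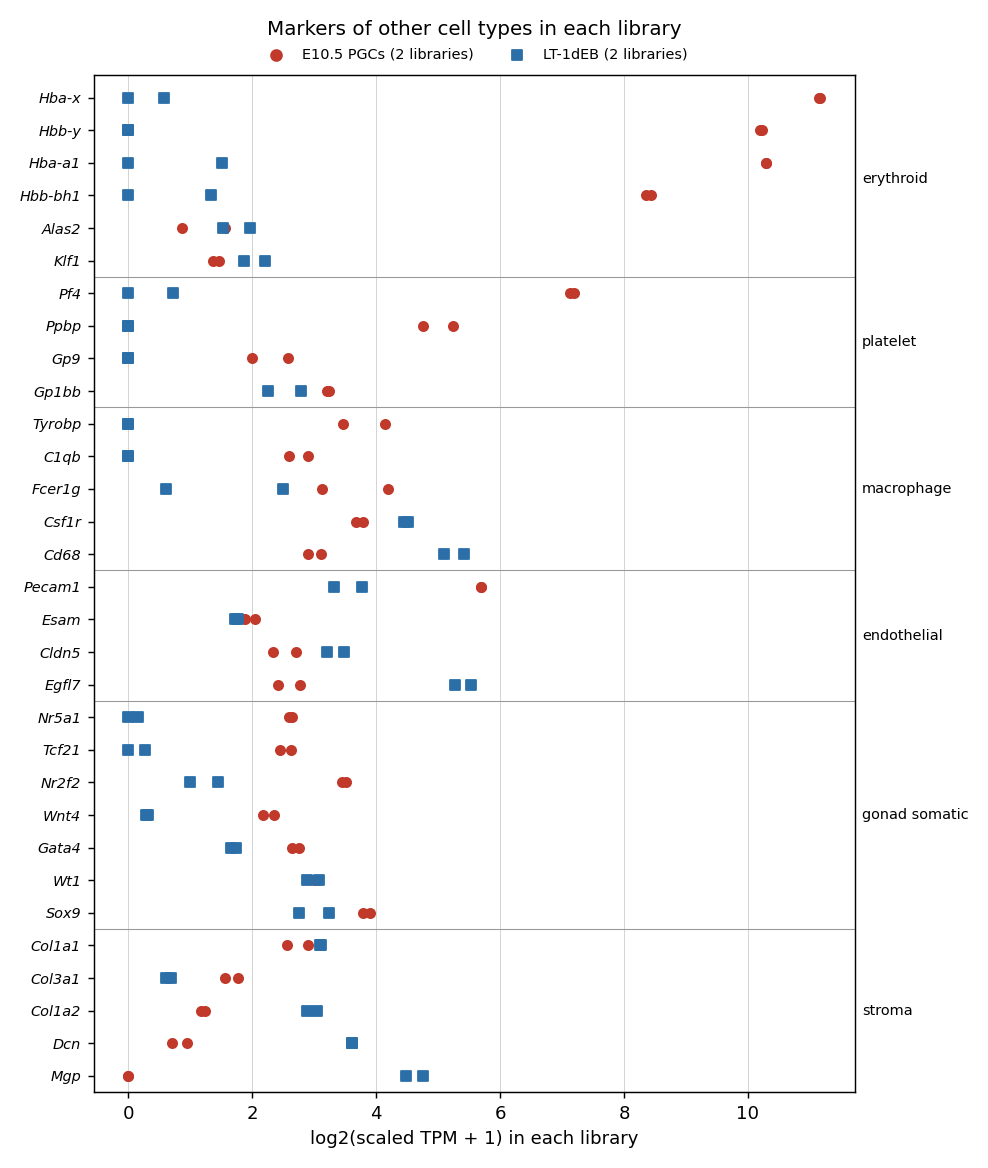
Level of 31 markers of other cell types in each of the 4 libraries, as log2(scaled TPM + 1) on the horizontal axis, with circles for E10.5 PGCs and squares for LT-1dEB. Globin, platelet and some macrophage genes lie far to the right in both PGC libraries, most of the gonad somatic genes shown, other than Wt1, lie to the right at low levels, and stroma genes other than Col3a1 lie to the left. The gonad somatic gene Star, called lower, is not shown.

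Somatic markers of the gonad were present in the PGC libraries at low levels. Of 20 genes 13 were tested, 7 of them through the PGC libraries alone, with 7 higher, all under all 5 settings, and 4 lower, none under all 5. Nr5a1 (SF1), the defining factor of gonadal somatic cells, was at 5.04 and 5.23 against 0 and 0.109, Tcf21 at 4.45 and 5.15 against 0 and 0.197, and Nr2f2, of the interstitium, at 9.90 and 10.4 against 0.993 and 1.72. Wt1 was at 6.96 and 7.37 against 6.34 and 7.47 and was not called. Star, among the lower members, was at 1.59 and 1.39 against 7.71 and 5.74 and passed the filter through the embryoid body libraries alone. The summed level of the list was 77.4 and 79.8 in PGCs against 75.1 and 73.1. Stroma genes went the other way, with 11 of 14 lower, 5 under all 5 settings, although 7 of the 14 passed the filter through the embryoid body libraries alone. Mgp was listed at 0 in both PGC libraries and Dcn was at 0.933 and 0.633 against 11.1 and 11.3. Of 7 endothelial genes tested Pecam1, which PGCs express as well, was higher and 3 were lower, with Egfl7 at 5.84 and 4.31 against 37.5 and 45.1. Of 7 epithelial genes tested 5 were lower, 3 (Cldn4, Cldn6 and Cldn7) under all 5 settings. Of 12 genes of the 2C-like state none passed the filter.

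Sex-linked and imprinted genes gave small groups. Xist, the RNA that coats the inactive X chromosome, was at 0.134 and 0.281 in PGCs against 7.39 and 6.22, and its antisense Tsix at 0.179 and 0.608 against 9.53 and 9.06. Both passed the filter through the embryoid body libraries alone, so their direction was fixed. Y-linked genes moved in both directions. Eif2s3y was at 47.8 and 45.5 against 21.9 and 25.7 and was not called. Ddx3y (7.42 and 6.91 against 22.96 and 18.7) and Uty (1.87 and 2.33 against 6.275 and 4.96) were lower with protein-coding totals alone. Zfy2 (2.595 and 1.946 against 0.648 and 0.149) was higher and passed the filter through the PGC libraries alone. Of 8 sex-linked genes tested 4 were lower and 1 higher, 2 and 1 under all 5 settings. Of 22 imprinted genes tested 7 were lower and 3 (Igf2r, H19 and Phlda2) higher, 3 and 3 under all 5 settings. The counts of both groups stand beside 36.3% of all genes lower and 10.9% higher, or 14.8% and 10.6% under all 5 settings. H19 was at 65.2 and 67.7 against 19.2 and 22.4, Igf2r at 54.2 and 56.6 against 14.3 and 15.4, and Meg3 at 0.952 and 0.928 against 9.10 and 9.47. Meg3 passed the filter through the embryoid body libraries alone, so its direction was fixed.

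Beyond the lists, the 15 largest rises among genes with an established symbol and at least 10 scaled TPM held 4 globins, Pf4, Dazl and 2 genes of the Rhox cluster. Rhox2a was at 162 and 166 against 1.79 and 1.64, and Rhox7b at 66.9 and 71.1 against 0.923 and 0. Gstm3, a glutathione transferase, was at 702 and 662 against 15.4 and 14.8, and Apoc2 at 273 and 293 against 2.48 and 2.28. Rhox2a, Rhox7b and Apoc2 passed the filter through the PGC libraries alone, so their direction was fixed. Families were counted after these values were seen. In the Rhox cluster on the X chromosome 19 of 34 genes were tested and 18 were higher, with a median difference of 3.94. In the X-linked Xlr family 8 of 9 genes were tested and all 8 were higher. The share of all genes called higher was 10.9%. How many members passed the filter through the PGC libraries alone was not counted, and the direction of such genes was fixed. Members of both families share near-identical sequence that counting can split. The 21 Pcdhg genes, whose transcripts share their last exons, were all lower, at -2.20 to -2.07.

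The lowest of all genes was Lars2, which encodes the mitochondrial leucyl-tRNA synthetase, at 6.46 and 6.21 scaled TPM in PGCs against 4091 and 3978, a difference of -9.10 ± 0.09 (limma, adjusted p = 9.6e-13). Its level moved with the share of the rRNA-like locus across groups. In the embryoid bodies that were rescued for telomere length, where that locus held 39.0% ± 1.84 (SD, n = 2) of TPM, Lars2 was at 8630 and 6936. The part of rRNA-derived reads in the Lars2 value was not tested. The 15 largest falls, taken in the same way, also included Apela (0.868 and 0.669 against 244 and 273), the kinase Pim2 (4.83 and 4.09 against 675 and 687), the thyrotropin-releasing hormone gene Trh (9.29 and 8.98 against 1150 and 1223), Klf9 (0.267 and 0.206 against 114 and 105) and Eras, which was listed at 0 in both PGC libraries.

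Genes of chromosome 11 were lower in PGCs than those of any other autosome in this comparison, a pattern noticed after the values were seen. Among 993 protein-coding genes of chromosome 11, 546 (55.0%) were called lower, against 34.1% of the 10460 on the other autosomes, where the share ran from 25.5% to 39.7%. Their median difference was -1.12, which is 0.54 below the median of all protein-coding genes, while the other 18 autosomes lay between -0.11 and 0.28 of it. Within each of the 5 GC classes chromosome 11 genes were lower than the rest, for example by medians of -0.80 against -0.21 in the class lowest in GC. Chromosome 11 held 13.8% of protein-coding expression in both LT-1dEB libraries and 10.47% and 10.43% in the PGCs. In the remaining 12 libraries it held 9.17% to 10.2%, embryoid bodies of the other stem cells included.

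The same PGC libraries were set beside the other day-1 embryoid bodies, those from generation 4 Terc knockout cells with short telomeres (ST) and from cells with Terc and telomere length rescued (RT). The 3 comparisons share the PGC libraries. Chromosome 11 lay at -0.17 from the median of all protein-coding genes against ST-1dEB and at -0.21 against RT-1dEB, within the range of the other autosomes in each. Between embryoid bodies, with no PGC library involved, it lay at -0.43 in ST minus LT, where the other autosomes ran from -0.16 to 0.13, and at -0.35 in RT minus LT, where they ran from -0.22 to 0.22. Genes described above that lie on chromosome 11 are Itgb3, Pecam1, Pld6, Meioc, Socs3, Tbx4, Lhx1, Rara, Hoxb7, Trp53, Ccng1, Slc16a3, Ccl5, H2afv, Hba-x, Hba-a1, Cd68 and Cldn7. By list, 2 of the 22 p53 genes tested, 1 of the 16 interferon genes, 2 of the 22 later germ cell genes and none of the 18 early PGC genes do. Other lists hold more, such as 5 of 12 Hox, 5 of 19 WNT, 4 of 16 streak, 4 of 24 meiosis and 3 of 13 gonad somatic genes. Hoxb5 and Hoxb1, which were called lower, lie there too.

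**Figure D5:**
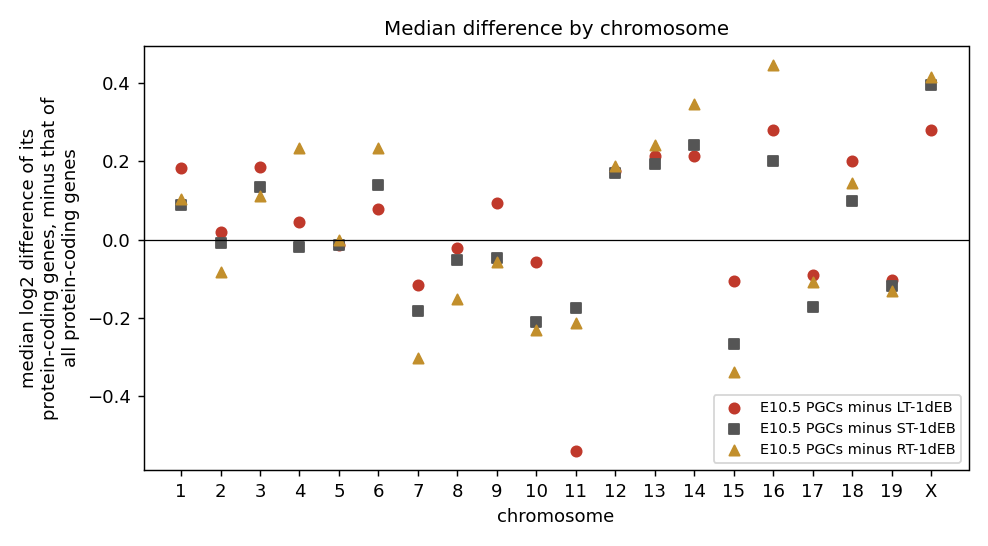
Median log2 difference of the protein-coding genes of each chromosome, minus the median of all protein-coding genes (vertical axis), for E10.5 PGCs minus LT-1dEB (circles), ST-1dEB (squares) and RT-1dEB (triangles), which share the PGC libraries. Chromosome 11 lies at -0.54 against LT-1dEB and at -0.17 and -0.21 against ST-1dEB and RT-1dEB.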

How the data were processed

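RNA was measured by RNA-seq of total RNA, and the authors deposited TPM values per gene symbol, without counts. Tools listed without roles or order, per the submitters' processing notes, were RSEM, HISAT2, Bowtie2, DESeq2 and R 3.4.2, on build mm10. The table has 28 columns, of which 12 could not be matched to one sample and were not used. Gene types and positions came from GENCODE annotation of the same build by symbol (53310 of 53564). The 16 matched libraries of 8 groups were scaled to protein-coding totals and fitted together with limma 3.58.1 in R 4.3.3 on log2(scaled TPM + 1), with a trended prior, no block, 2-sided tests and Benjamini-Hochberg adjustment over all 16085 genes. The script was tested on simulated data. TPM is a share of the library, so an abundant RNA in 1 group lowers every other value there.

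The text names 25 anchor genes, up to 6 called members with the largest change and no overlap from each of 42 lists, and the 15 highest and 15 lowest called genes with at least 10 scaled TPM in the higher group, leaving out predicted, Rik, mitochondrial and small RNA symbols. Other list members, Gm19553, gene families, promoter motifs, chromosome, GC and length summaries and pseudogene copies were chosen after their values were seen. Members and lists were chosen with earlier results of these data known. Alternatives were other scalings, pseudocounts, filters, fits and each library left out, with a GC correction added after seeing the data. Day-4 PGC-like cells and epiblast-like cells are not analysed here. Some list members are not reported here by name.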

Additional observations from a re-analysis of the deposited data

How the results depend on the processing

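The overall split moved with the scaling. With protein-coding totals 1753 genes were higher and 5840 lower. Deposited TPM gave 2983 and 3106, quantile normalization 3034 and 2916, the median of ratios 3015 and 3883, and the GC correction, chosen after seeing the data, 3084 and 3239. A pseudocount of 5 gave 1163 and 3618, and a filter of 5 TPM gave 3006 lower. Leaving out 1 library gave 1638 to 1722 higher and 5650 to 5745 lower. No named gene was called in the opposite direction under any alternative run. Of 232 named genes 230 were called, and 178 of these kept the call in every alternative they were fitted in, 203 in all 4 scalings and 222 with any 1 library left out. The cause of these changes was not tested. The files hold no counts, so read depth is unknown and gives no interval on a value.

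Of 84 list counts, 32 moved by over 1.5 times with deposited TPM, 34 with quantile normalization, 27 with the median of ratios, 30 with the GC correction, 18 with a pseudocount of 5 and 22 with a filter of 5 TPM. For each list with such a count, the value with protein-coding totals comes first and the values under those 6 alternatives follow in that order. PGC specification genes numbered 5 lower against 1, 2, 1, 1, 3 and 3. PGC guidance genes numbered 5 lower against 3, 4, 3, 3, 5 and 4. Later germ cell genes numbered 1 lower against 0, 0, 0, 0, 0 and 0. Meiosis genes numbered 6 lower against 3, 3, 3, 4, 2 and 1. PRC1.6 genes numbered 1 higher against 2, 1, 1, 1, 1 and 1, with 7 lower against 4, 4, 4, 5, 5 and 5. Core pluripotency genes numbered 9 lower against 5, 8, 7, 6, 8 and 8. Streak genes numbered 8 lower against 7, 5, 8, 8, 5 and 5. Endoderm genes numbered 4 higher against 4, 5, 5, 5, 1 and 1, with 4 lower against 2, 2, 2, 2, 3 and 3. Neural genes numbered 2 higher against 2, 2, 2, 2, 0 and 0. Hox genes numbered 3 higher against 3, 6, 4, 6, 0 and 0, with 3 lower against 2, 0, 2, 2, 0 and 0. BMP genes numbered 3 higher against 3, 4, 3, 5, 2 and 2, with 7 lower against 4, 4, 5, 5, 4 and 4. Nodal genes numbered 1 higher against 2, 2, 2, 2, 1 and 1. FGF genes numbered 2 higher against 3, 4, 4, 5, 1 and 1, with 13 lower against 6, 7, 8, 8, 9 and 10. Immediate early genes numbered 3 higher against 3, 4, 4, 4, 1 and 2, with 10 lower against 6, 6, 6, 3, 9 and 10. WNT genes numbered 3 higher against 3, 5, 4, 6, 2 and 2, with 7 lower against 5, 4, 5, 5, 5 and 4. Retinoic acid genes numbered 3 higher against 4, 3, 4, 3, 2 and 1, with 8 lower against 7, 5, 7, 6, 5 and 3. Imprinted genes numbered 3 higher against 4, 5, 5, 5, 3 and 3, with 7 lower against 5, 4, 5, 6, 4 and 3. Sex-linked genes numbered 1 higher against 2, 2, 2, 2, 0 and 0, with 4 lower against 2, 2, 2, 2, 3 and 1. Proliferation genes numbered 3 higher against 9, 5, 8, 6, 3 and 3, with 11 lower against 2, 3, 3, 3, 11 and 11. CDK inhibitor genes numbered 0 higher against 1, 1, 1, 1, 0 and 0. BCL2 family genes numbered 0 higher against 1, 0, 1, 1, 0 and 0, with 10 lower against 6, 8, 9, 7, 9 and 8. Telomere genes numbered 0 higher against 1, 1, 1, 0, 0 and 0, with 8 lower against 4, 4, 4, 3, 7 and 7. Glycolysis genes numbered 2 higher against 5, 5, 6, 6, 2 and 2, with 11 lower against 6, 9, 7, 7, 9 and 10. Oxidative phosphorylation genes numbered 3 higher against 15, 3, 12, 12, 3 and 3. Cholesterol genes numbered 3 higher against 9, 5, 7, 5, 2 and 3, with 3 lower against 1, 1, 1, 1, 2 and 3. Interferon genes numbered 14 lower against 13, 13, 13, 13, 12 and 9. Histones genes numbered 1 higher against 2, 2, 2, 2, 1 and 1, with 13 lower against 10, 10, 11, 7, 11 and 10. Histone variant genes numbered 2 higher against 4, 2, 3, 3, 2 and 2. Gonad somatic genes numbered 7 higher against 8, 8, 8, 8, 2 and 1, with 4 lower against 0, 0, 2, 1, 0 and 1. Stroma genes numbered 1 higher against 0, 2, 1, 1, 0 and 0, with 11 lower against 6, 5, 8, 5, 8 and 5. Macrophage genes numbered 5 higher against 5, 5, 5, 5, 3 and 1. Endothelial genes numbered 1 higher against 1, 2, 1, 1, 1 and 1, with 3 lower against 2, 2, 2, 1, 2 and 2. Epithelial genes numbered 5 lower against 3, 3, 3, 3, 4 and 4.

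A pseudocount of 0.1 gave 0 lower later germ cell genes and 4 higher glycolysis genes. With no filter there were 2 lower later germ cell, 1 lower erythroid and 5 lower endothelial genes, and a fit of the 4 libraries alone gave 2 higher histones. With 1 library left out, later germ cell genes numbered 0 lower in every case, higher endoderm genes 2 to 4, higher FGF genes 1 to 2, higher glycolysis genes 2 to 4, higher oxidative phosphorylation genes 3 to 5, higher stroma genes 0 to 1 and higher macrophage genes 3 to 4. The lone library of such a group is assumed to vary like the other groups. Replicate numbers do not pair these samples, since deviations of same-numbered libraries correlated at -0.0068 across genes, and a fit with the replicate block gave 1756 higher and 5845 lower genes and moved 0 of the 84 list counts.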
